A study of Homo sapiens with 6 samples.

Results

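The OAS family and the cytosolic RNA sensors were followed here as 9 genes out of 35106 in the count table, chosen by name: OAS1, OAS2, OAS3, OASL, DDX58, IFIH1, DHX58, MAVS and EIF2AK2. The choice was made with the shikonin against control differences of these same libraries in view, so those differences are given as a description, without a p-value. Under their symbol, 8 of the 9 were found. The ninth, OAS1, was found by its identifier, ENSG00000089127, because the name column calls that row AC004551.1 while GENCODE release 44 gives the identifier to OAS1. The cells were HCT116, a colorectal cancer cell line grown in culture and labelled wild type (WT). The treated group held 3 libraries labelled shikonin, a red naphthoquinone from gromwell roots, given for 24 h at 8 μM (the labels write μm). The control group held 3 libraries whose treatment label is none. The treatment protocol is worded the same for all samples, the paper's methods give a lower dose for the same time, and whether the control cells received the solvent DMSO is not given in the sources used here. No source used here ties the 3 libraries of either group to independent cultures, so each error or p-value reflects the scatter of these libraries alone, which may be technical.

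These genes form the part of innate immunity that reads viral or misplaced double-stranded RNA in the cytosol. OAS1, OAS2 and OAS3 make short 2′-5′-linked oligoadenylates when they bind double-stranded RNA, which act as messengers of the antiviral response; OASL is a relative without this activity that acts on RIG-I signalling. RIG-I (DDX58) and MDA5 (IFIH1) are helicases that signal through the mitochondrial adaptor MAVS to induce interferon, LGP2 (DHX58) is a related helicase without the signalling domain, and PKR (EIF2AK2) is a kinase that stops translation by phosphorylating eIF2α. Most of these genes are themselves induced by interferon, through the factor complex ISGF3, which includes STAT2 and IRF9, and through interferon regulatory factors, which bind repeated GAAA elements in their promoters.

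The promoters of 6 of the 9 genes were in the RefSeq sequence table used (build GRCh38.p14; 250 bases before and 50 after the start), and 5 of the 6 held a repeat of GAAA. The repeats are shown because most of these promoters share them and the choice of genes did not use them. In OAS3, IFIH1 and EIF2AK2 the capitals mark GAAA, any 2 bases and GAAA (or TTTC, any 2 bases and TTTC, where the repeat lies on the other strand), called the 2-base repeat. In OAS1 and DDX58 they mark GAAANGAAA, the 1-base repeat.
OAS3: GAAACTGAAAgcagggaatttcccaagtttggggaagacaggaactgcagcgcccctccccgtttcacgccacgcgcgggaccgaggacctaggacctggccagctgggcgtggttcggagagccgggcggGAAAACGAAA
IFIH1: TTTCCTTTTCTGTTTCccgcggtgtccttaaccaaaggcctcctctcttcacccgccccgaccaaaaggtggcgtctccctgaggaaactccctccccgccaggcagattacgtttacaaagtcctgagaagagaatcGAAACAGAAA
EIF2AK2: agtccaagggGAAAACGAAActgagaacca
OAS1: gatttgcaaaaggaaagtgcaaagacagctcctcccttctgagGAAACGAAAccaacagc
DDX58: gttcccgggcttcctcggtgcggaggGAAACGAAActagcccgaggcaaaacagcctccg
The stretch of OAS3 lies at chr12:112938331-112938471 on the plus strand and ends 3 bases before the start. That of IFIH1 lies at chr2:162318696-162318843 on the minus strand, and that of EIF2AK2, which spans the start, at chr2:37156967-37156996 on the minus strand. The stretch of OAS1 is the last 60 bases before the start, at chr12:112906902-112906961 on the plus strand, and that of DDX58 lies at chr9:32526366-32526425 on the minus strand.

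The 2-base repeat, searched on both strands, was found in 3 of the 6 sensor promoters and in 3.65% of the 27305 RefSeq promoters of the same length. IFIH1 held 3 matches, of which the upstream pair overlap, OAS3 held 2 and EIF2AK2 held 1. The 1-base repeat was found in 3 of the 6, in OAS1, OAS3 and DDX58, against 3.22% of all promoters. This shorter spacing was added after the sequences had been seen, and in OAS3 its match overlaps the upstream 2-base repeat. Either form was found in 5 of the 6 and in 6.55% of all promoters. When a spacing of 3 bases was counted together with that of 2, DDX58 gained a match and the number was 4 of 6, against 6.19% of all promoters. Of 30 promoters of other interferon-stimulated genes, 21 held the 2-base repeat and 8 the 1-base repeat. The 9 bases TTCNNNGAA, the interferon-gamma activated form, were found in OAS1 and in 7.88% of all promoters. MAVS held none of these motifs in its window. OAS2, OASL and DHX58 were not in the table used. A match is a match of letters and was not measured as a bound site.

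**Figure D1:**
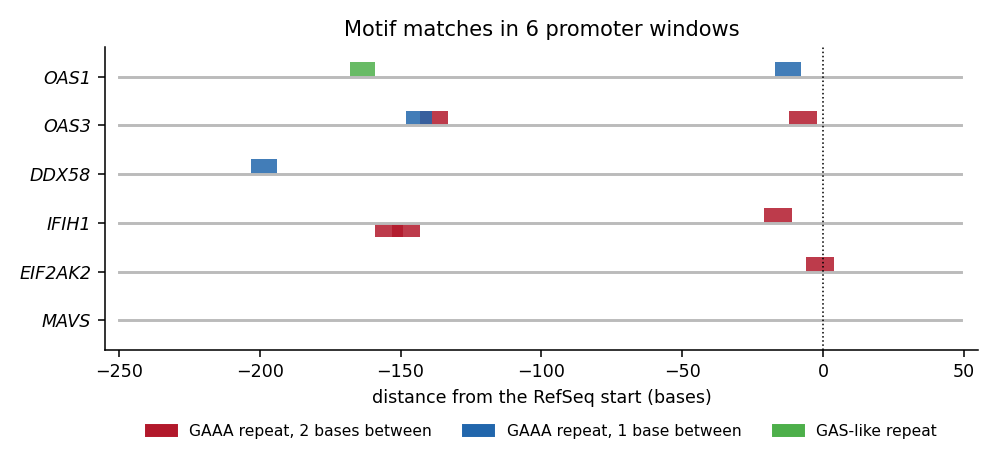
Motif matches in the promoter windows of 6 genes, by distance from the RefSeq start in bases (x axis); boxes above a line are on the strand of the gene, boxes below it on the other strand. Red marks the 2-base repeat, blue the 1-base repeat and green TTCNNNGAA; OAS1, OAS3, IFIH1 and EIF2AK2 have a GAAA repeat close to the start, DDX58 only farther upstream, and MAVS has none.

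The library totals ranged from 18845690 to 21765806 in the shikonin libraries and from 18874211 to 19781383 in the control libraries. Mitochondrially encoded genes took 6.99% of the counts in shikonin replicate 1, against 4.27% to 5.16% in the other libraries. The epithelial markers EPCAM, CDH1, KRT8, KRT18 and KRT19 summed to 3534 to 4151 CPM (shikonin libraries) and 3537 to 3825 CPM (control libraries). CPM is a gene's count relative to its library total, summed over the genes kept for testing and scaled by edgeR's TMM factor. The 6 leukocyte markers summed to 18.9 to 21.9 CPM against 12.3 to 15.1 CPM, nearly all from CD68 (17.0 to 20.9 against 11.5 to 13.7 CPM), with CD3E at 0 in all 6 libraries and PTPRC at 0.165 CPM in shikonin replicate 2 and 0 elsewhere. The 4 fibroblast markers summed to 26.6 to 35.1 CPM against 30.9 to 34.5 CPM, from COL1A1, with DCN and LUM at 0 throughout. The 3 endothelial markers stayed at or under 1.49 CPM in the shikonin libraries and 1.87 CPM in the control libraries. The part of the mitochondrial share and of CD68 in the differences below was not tested.

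Compared with the control group, the shikonin group had less RNA of OAS1, OAS3, DDX58, IFIH1 and EIF2AK2, at 37.3% to 61.6% of the control mean in CPM. OASL and MAVS lay a little below control, DHX58 lay above it at few counts, and OAS2 was close to undetected in both groups. In bulk RNA, fewer cells that express a gene and less RNA per cell cannot be told apart. Of the 9 genes, 8 passed the filter on low counts, and 5 of these were lower at an adjusted p under 0.05 in edgeR's quasi-likelihood fit across all 13548 tested genes. In that fit 11.1% of all tested genes were lower and 10.8% were higher, and nothing is read from the number for the sensors because this contrast chose them. Scaled by library totals alone, 1033 genes were higher and 2150 lower, against 1460 and 1504 in the fit used here, and 7 of the 8 were then lower, OASL and MAVS being added. The median log2 fold change over the 8 was -0.77, beside -0.02 over all tested genes.

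OAS1, which makes oligoadenylates with a single catalytic unit, was at 4.31, 4.45 and 3.87 CPM in the shikonin libraries and at 13.6, 12.7 and 7.64 CPM in the control libraries (means of 4.21 ± 0.303 and 11.3 ± 3.20, SD, n = 3 each). Every shikonin library lay below every control library, and control replicate 3 stood well under the other controls. The log2 fold change was -1.42 (standard error 0.21), and it was -1.64 without control replicate 3. It rests on 78 to 90 counts in the shikonin libraries and 154 to 261 in the control libraries. Among all tested genes this fold change lay at percentile 0.21 from the lowest.

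OAS3, the long family member with repeated units, which had the highest level of the OAS genes per length, was at 82.5, 87.3 and 77.2 CPM in the shikonin libraries and 197, 196 and 136 CPM in the control libraries. The groups did not overlap, and control replicate 3 was again the low control. The log2 fold change was -1.10 (standard error 0.12), and -1.26 without control replicate 3.

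OASL was at 8.34, 8.58 and 7.05 CPM in the shikonin libraries and at 10.8, 12.1 and 8.93 CPM in the control libraries. Its highest shikonin library, replicate 2, lay just under its lowest control library, replicate 3. The log2 fold change was -0.41 (standard error 0.16) and did not pass the threshold across all genes, though it did without control replicate 3, at -0.52. This difference was smaller than those of OAS1 and OAS3, and the contrast between the genes was not tested. OAS2, with paired units, had 1, 0 and 6 estimated counts in the shikonin libraries and 3, 4 and 0 in the control libraries, and with so few counts no fold change is given.

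**Figure D2:**
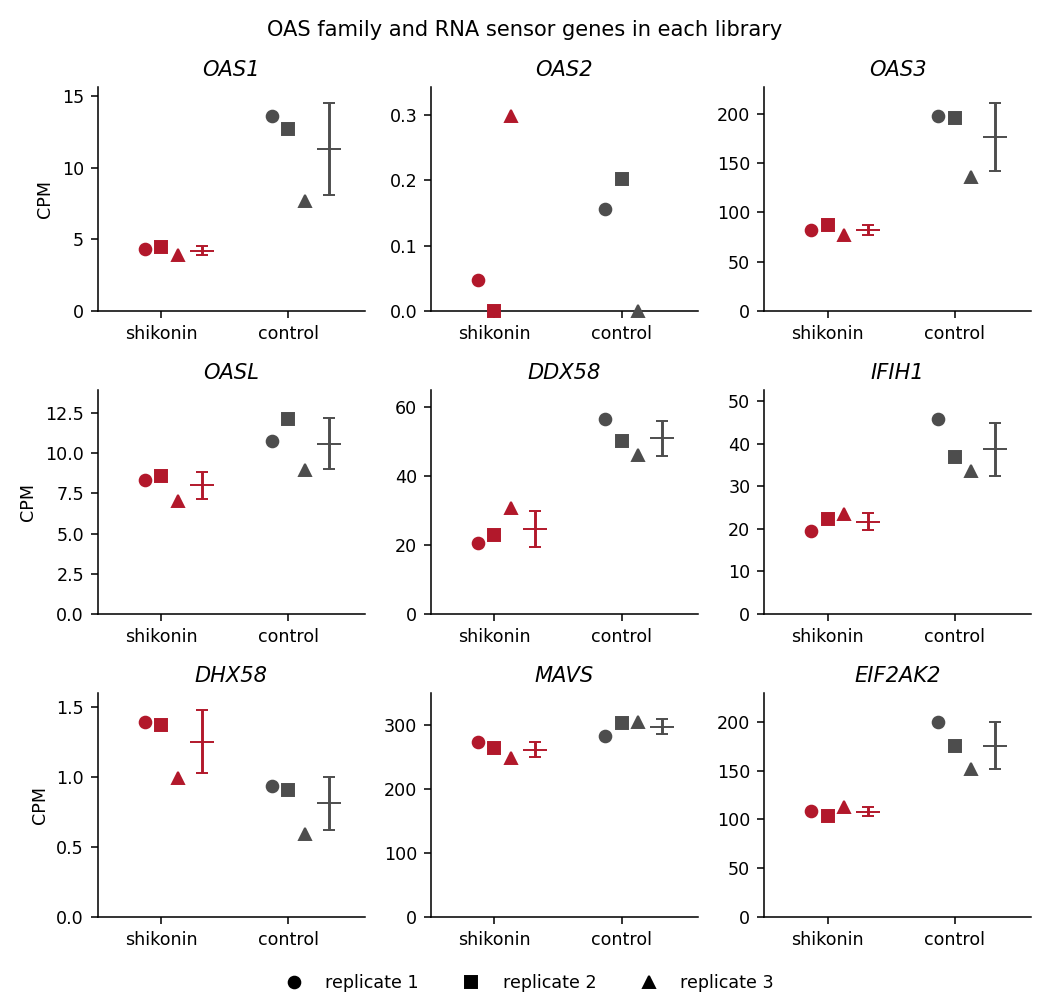
CPM of the 9 genes (y axis of each panel, starting at 0) in the 3 shikonin libraries (red, left) and the 3 control libraries (grey, right); symbols mark the replicate, and the horizontal mark with bars is the mean ± SD (n = 3; left out for OAS2, which has at most 6 counts in a library). In OAS1, OAS3, DDX58, IFIH1 and EIF2AK2 the shikonin libraries lie well under the control libraries; in DHX58 they lie above them.

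Among the helicases, DDX58 and IFIH1 were both lower. DDX58, the gene of RIG-I, which recognises short RNA with a 5′ triphosphate, was at 20.7, 23.0 and 30.6 CPM in the shikonin libraries and at 56.4, 50.1 and 46.1 CPM in the control libraries. Shikonin replicate 3 was the high one of its group but lay under every control library. The log2 fold change was -1.04 (standard error 0.13), and it ran from -1.20 without shikonin replicate 3 to -0.92 without shikonin replicate 1.

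IFIH1, the gene of MDA5, which binds long double-stranded RNA, was at 19.5, 22.3 and 23.4 CPM in the shikonin libraries and at 45.8, 36.8 and 33.6 CPM in the control libraries. The groups did not overlap, with control replicate 1 above the other controls. Its log2 fold change was -0.83 (standard error 0.12), and -0.70 without control replicate 1. DHX58, the gene of LGP2, had 29, 25 and 20 estimated counts in the shikonin libraries and 18, 18 and 12 in the control libraries, or 1.39, 1.37 and 0.993 CPM against 0.935, 0.911 and 0.595 CPM. It was the one sensor gene that lay higher in the shikonin libraries, at a log2 fold change of 0.62 (standard error 0.39), which did not pass the threshold. In TPM, where the scaling differs, its groups overlapped.

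The adaptor and the kinase stood apart in the size of their differences. MAVS, which relays the signal of both RIG-I and MDA5 from the mitochondrial surface, was at 272, 263 and 248 CPM in the shikonin libraries and at 283, 303 and 304 CPM in the control libraries. The ranges came close without overlapping, and in unscaled counts they overlapped. The log2 fold change was -0.18 (standard error 0.07), did not pass the threshold, and moved to -0.25 under scaling by library totals alone and to -0.05 once an offset took up the trend with length and GC.

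EIF2AK2, the gene of PKR, was at 108, 103 and 113 CPM in the shikonin libraries and at 200, 175 and 152 CPM in the control libraries. The shikonin libraries lay close together and under every control library, with control replicate 3 the lowest control. Its log2 fold change was -0.70 (standard error 0.09), and -0.52 with that offset. The fold change of all genes fell with transcript length (Spearman's rho of -0.31 over 13515 genes, which are not independent replicates). Its median was -0.13 in the fifth with the longest transcripts, where OAS3, MAVS and EIF2AK2 lie, and 0.14 in the fifth with the shortest, where OAS1 lies. With the offset, the log2 fold changes were -1.54 for OAS1, -1.01 for OAS3, -0.96 for DDX58 and -0.80 for IFIH1.

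In CPM, the shikonin libraries lay below the control libraries without overlap in 7 of the 8 tested genes and above them in DHX58. Over all tested genes, 20.3% separated in the lower direction and 18.1% in the higher one, so separation by itself is common in these libraries.

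**Figure D3:**
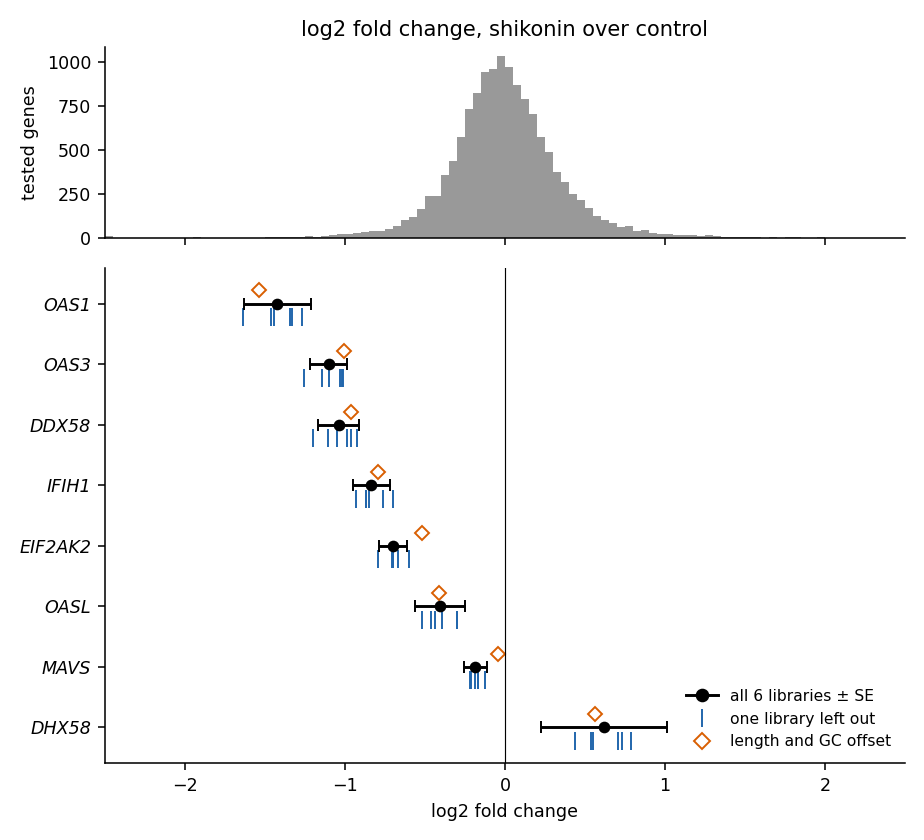
Log2 fold change of shikonin over control (x axis) as a histogram of all 13548 tested genes (top, number of genes per bin of 0.05, with values beyond ±2.5 drawn in the outermost bins) and for the 8 tested sensor genes (bottom; dots with bars are the estimate ± its standard error, blue ticks the value with a library left out, orange diamonds the value with a length and GC offset). OAS1, OAS3 and DDX58 lie beyond -1 and MAVS next to 0, and no gene changes side with a library left out.

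The spread within a group also entered the standard errors and p-values of the contrast, so it is described here without a test. Over the 7 sensor genes that averaged 50 counts or more, control replicate 3 was the lowest control in 6, the exception being MAVS, while it was the lowest control in 36.9% of all genes of that abundance. Control replicate 1 was the highest control in 5 of the 7, against 34.5% of all such genes. Among the shikonin libraries the order was divided: replicate 3 was lowest in OAS1, OAS3, OASL and MAVS and highest in DDX58, IFIH1 and EIF2AK2. In OAS1 the SD of the log2 CPM was 0.10 in the shikonin libraries and 0.45 in the control libraries, and in OAS3 it was 0.09 and 0.31. DDX58 went the other way, with 0.29 in the shikonin libraries and 0.15 in the control libraries. With 3 libraries a group these SDs are rough.

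Levels were compared between genes per length, as TPM from the length of the MANE Select transcript. In the shikonin libraries MAVS led, at 48.2 ± 0.234 TPM (SD, n = 3), followed by OAS3 at 27.0 ± 1.14 and EIF2AK2 at 23.5 ± 1.98. In the control libraries OAS3, at 65.1 ± 14.2 TPM, and MAVS, at 61.4 ± 2.03, overlapped, and EIF2AK2 followed at 42.8 ± 6.68. The ranges of OAS3 and EIF2AK2 overlapped there as well, with OAS3 at 48.7 TPM in control replicate 3 and EIF2AK2 at 49.3 TPM in control replicate 1. Every shikonin library thus had more MAVS than OAS3. The overlap of OAS3 and MAVS in the control libraries depends on the transcript. By the longest annotated ones MAVS averaged 74.8 TPM and OAS3 54.0 TPM there, and did not overlap. The order behind MAVS in the shikonin libraries depends on it too, since by the longest transcripts EIF2AK2 averaged 28.4 TPM and OAS3 22.5 TPM, again without overlap. IFIH1 and DDX58 overlapped in both groups, at 13.2 ± 1.82 and 11.7 ± 3.04 TPM in the shikonin libraries and 26.3 ± 4.74 and 26.7 ± 3.23 TPM in the control libraries. OAS1 and OASL overlapped in the shikonin libraries (5.59 ± 0.216 and 5.28 ± 0.339 TPM) but not in the control libraries (16.9 ± 5.08 and 7.88 ± 1.33 TPM). DHX58 stayed near 1 TPM, at 1.04 ± 0.144 and 0.765 ± 0.193, and OAS2 averaged 0.056 and 0.064 TPM. The place of OAS1 depends on it as well: with its longest annotated transcript of 7546 bases in place of the MANE Select one of 1631 bases, its control mean was 4.45 TPM, under that of OASL.

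The sensor genes lie at several places in the genome (GENCODE release 44, GRCh38). OAS1 (chr12:112905856-112933219), OAS3 (chr12:112938051-112976460) and OAS2 (chr12:112978395-113011723) follow one another on the plus strand of chromosome 12 within 105.9 kb, and OASL lies apart at chr12:121017763-121039246 on the minus strand. IFIH1 (chr2:162267074-162318684) and EIF2AK2 (chr2:37099210-37157522) lie on chromosome 2, DDX58 (chr9:32455302-32526208) on chromosome 9 and DHX58 (chr17:42101404-42112714) on chromosome 17, all on the minus strand. MAVS is on the plus strand of chromosome 20 (chr20:3846799-3876123). Within the cluster OAS1 and OAS3 were lower, while OAS2, next to OAS3, was close to undetected in both groups. Some counts are uncertain through overlaps with other annotated genes, and whether the counting used strand is not given in the sources used here. The annotation places an antisense transcript over 222 exonic bases of OAS1, another protein-coding gene over 4471 exonic bases of DDX58 on the same strand, and GPATCH11 over 35 and the pseudogene ARL14EPP1 over 401 exonic bases of EIF2AK2, both on the opposite strand. GPATCH11 averaged 124 counts and ARL14EPP1 0.601 counts. The antisense transcript over OAS1 and the gene over DDX58 are not among the counted genes.

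The genes around the sensors were taken from 7 lists, of which 129 of 145 genes were tested. Among these 38 were lower, 5 were higher and 86 did not pass, all by edgeR's quasi-likelihood test adjusted over all genes, where 11.1% of genes were lower and 10.8% higher. The lists were compiled with earlier results of these libraries known, so their counts are a description. Leaving out shikonin replicate 3 gave 13 higher genes, shikonin replicate 2, control replicate 1 or control replicate 3 gave 2, and control replicate 2 gave 1.

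Of the 5 genes listed with OAS, ABCE1, a ribosome recycling factor, was higher (log2 fold change 0.28, adjusted p = 0.0255 by edgeR) and 4 did not pass. ABCE1 lost its call without control replicate 1, 2 or 3, with the replicate block in edgeR and under library totals; its adjusted p ran from 0.000749 to 0.11 over all alternatives.

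Of 41 partners of the RIG-I-like receptors and MAVS, 7 were lower, 1 was higher and 33 did not pass, with a median log2 fold change of 0.02. The higher one, named after its value was seen, was DHX15, a helicase (154, 161 and 167 CPM in the shikonin libraries, 138, 136 and 139 CPM in the control libraries). Without shikonin replicate 3, 7 were higher, and DHX15 lost its call without shikonin replicate 2 or any 1 of the controls, under library totals and with the replicate block in edgeR and in DESeq2. With the length and GC offset, 4 of the partners were higher. DDX60, a helicase reported to assist RIG-I, was at 13.5 ± 1.28 CPM in the shikonin libraries and 30.2 ± 4.37 CPM in the control libraries (SD, n = 3 each). IRF7, the interferon-inducible factor that amplifies interferon production, was at 33.7, 33.0 and 18.7 CPM against 71.6, 51.1 and 66.2 CPM (log2 fold change -1.15, standard error 0.17, adjusted p = 0.000455 by edgeR). Both had every shikonin library below every control library. RNF125, a ubiquitin ligase that marks RIG-I for degradation, and RIPK1, a kinase of death receptor signalling, had log2 fold changes of -0.52 and -0.46 (adjusted p of 0.000848 and 0.0011 by edgeR).

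Of the relay between RIG-I and interferon, TRIM25, TBK1 and IRF3 did not pass the test. TRIM25, the ubiquitin ligase of RIG-I, had a log2 fold change of -0.03 (standard error 0.08), the kinase gene TBK1 of 0.17 (standard error 0.12) and IRF3 of 0.22 (standard error 0.07). IRF3 had an adjusted p of 0.051 by edgeR, and of 0.026 to 0.447 over the alternatives. Its shikonin libraries, at 73.6, 65.9 and 70.8 CPM, all lay above the control libraries, at 62.0, 59.6 and 59.6 CPM. In unscaled counts the groups of IRF3 overlapped.

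Around PKR, 2 of 17 genes were higher and 15 did not pass. PPP1R15A, a subunit of the phosphatase that reverses the mark PKR sets on eIF2α, was at 249, 234 and 204 CPM in the shikonin libraries and 147, 131 and 123 CPM in the control libraries, so it lay above control where EIF2AK2 lay below. NPM1, a nucleolar chaperone, lay higher at 0.30 on the log2 scale (adjusted p = 0.0184 by edgeR). Its adjusted p ran from 0.000252 to 0.0906 over the alternatives, and its call was lost without shikonin replicate 2, control replicate 2 or control replicate 3, under library totals and with the length and GC offset. Under library totals, 1 gene around PKR was higher and 3 were lower, and 2 were lower without shikonin replicate 3 or without the filter on low counts. PRKRA, the protein activator of PKR, had a log2 fold change of 0.00 (standard error 0.09).

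Of 7 tested other sensors of nucleic acids, MYD88, the adaptor of Toll-like receptors, was lower (log2 fold change -0.38, adjusted p = 0.0122 by edgeR) and 6 did not pass. The adjusted p of MYD88 ran from 0.000907 to 0.0725 over the alternatives, and its call was lost without control replicate 1 or control replicate 2. TLR3, the endosomal receptor of double-stranded RNA, was at 3.07, 2.91 and 2.48 CPM in the shikonin libraries and 5.61, 3.49 and 4.22 CPM in the control libraries (log2 fold change -0.65, standard error 0.24, adjusted p = 0.0682 by edgeR, and 0.0486 to 0.315 over the alternatives). STING1, the adaptor of DNA sensing, had overlapping groups, at 33.4, 27.3 and 28.9 CPM against 27.2, 32.2 and 26.7 CPM. CGAS, the DNA sensor related in fold to the OAS proteins, was at 0.149 CPM or less in every library.

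Of 13 enzymes that edit, unwind or degrade RNA or DNA ligands, 3 were lower, 1 was higher and 9 did not pass. Without shikonin replicate 3, 5 were lower and 2 were higher. ADAR, which edits adenosines in double-stranded RNA and so hides it from MDA5, was at 553, 587 and 512 CPM in the shikonin libraries and 787, 723 and 692 CPM in the control libraries (log2 fold change -0.41, standard error 0.08, adjusted p = 0.00289 by edgeR). SAMHD1, which hydrolyses deoxynucleotides, stood at -0.75 on the log2 scale (adjusted p = 2.10e-05 by edgeR) and the 5′ exonuclease gene XRN1 at -0.53 (adjusted p = 0.00142). SUPV3L1, a mitochondrial helicase, was the higher one (log2 fold change 0.26, adjusted p = 0.0379 by edgeR). It missed the threshold in 9 of the 16 alternatives, among them those without any 1 of the controls, shikonin replicate 1 or shikonin replicate 2, with adjusted p of 0.0244 to 0.175 over all of them.

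Upstream, the interferon genes themselves were hardly measured. IFNB1 had at most 0.152 CPM and IFNL1 at most 0.0993 CPM in any library, and neither was tested. Of 17 tested genes of interferon ligands, receptors and ISGF3, 7 were lower and 10 did not pass, and 4 were lower without control replicate 1. STAT2 and IRF9, which act together in ISGF3, were lower. STAT2 was at 58.7 ± 1.57 CPM in the shikonin libraries and 86.0 ± 0.845 CPM in the control libraries (SD, n = 3 each). IRF9 was at 37.8, 44.8 and 36.0 CPM against 50.4, 53.7 and 49.6 CPM. In both each shikonin library lay below each control library; IRF9 had an adjusted p of 0.00976 by edgeR, of 0.000408 to 0.0531 over the alternatives, and lost its call without control replicate 2. The receptor gene IFNAR2 was lower by edgeR as well (log2 fold change -0.45, adjusted p = 0.00453). Of 29 other interferon-stimulated genes tested, 20 were lower and 9 did not pass, with a median log2 fold change of -0.66. The lower genes with the smallest p were DTX3L and its partner PARP9, at log2 fold changes of -0.78 and -0.95, and IFI6 and IFIT1, at -1.29 and -1.23. The 9 that did not pass lay between -0.87 and 0.04. Without control replicate 1, 15 of these interferon-stimulated genes were lower, and 15 in DESeq2 with the replicate block.

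**Figure D4:**
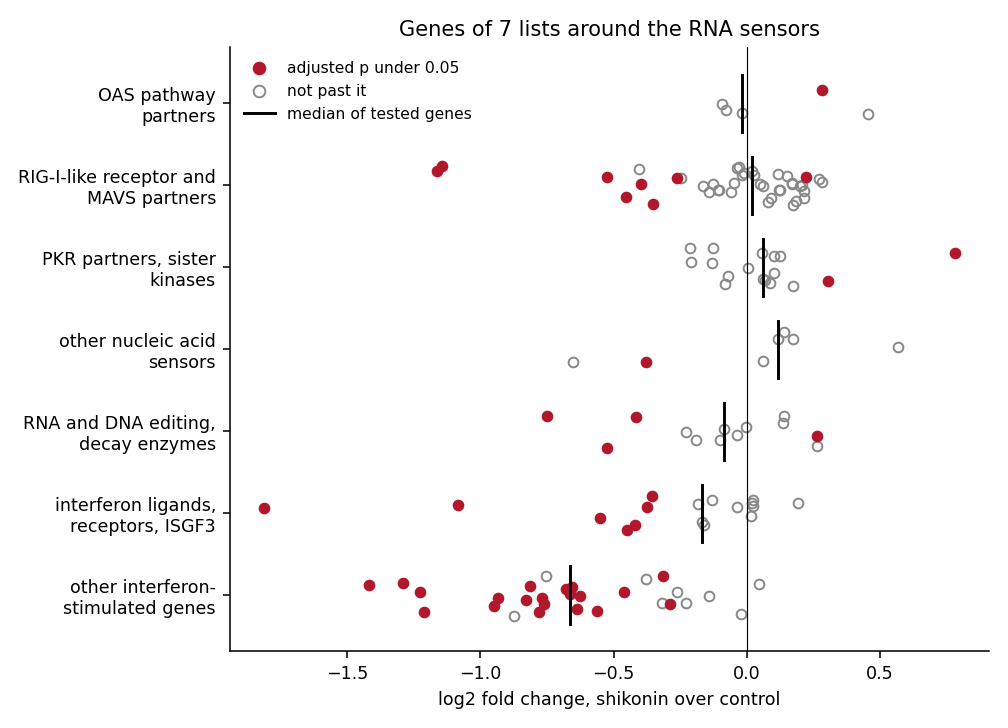
Log2 fold change of shikonin over control (x axis) for each tested gene of the 7 lists (rows; points are spread vertically only to be seen). Filled points passed an adjusted p under 0.05 in edgeR's test across all genes, open points did not, and the bar is the median of the tested genes; the median is -0.66 in the interferon-stimulated genes, against 0.02 in the partners of the RIG-I-like receptors and MAVS and 0.06 around PKR.

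The genes whose profile over the 6 libraries came nearest to that of the OAS family were sought among 11819 other genes averaging 50 counts or more. The family profile was the mean of OAS1, OAS3 and OASL in log2 CPM, centred on the mean of the 6 libraries. It stood at -0.44, -0.38 and -0.60 in the shikonin libraries and at 0.65, 0.67 and 0.11 in the control libraries. By root mean square difference from it, the nearest was PARP9 (0.12, against a median of 0.52 over all candidates). EXO1, DRAXIN, PRR11, HELZ2, ENC1, GAS2L3 and ARNT2 followed, at 0.13 to 0.16. The nearness reflects the shared low value of control replicate 3 as well as the difference between the groups. With the mean profile of all 8 tested sensor genes in its place, only PRR11 and ARNT2 stayed among the nearest 8, and MKI67 came first, so the names depend on the profile used.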

How the data were processed

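Messenger RNA of 6 HCT116 libraries was measured by sequencing, and the authors deposited estimated counts per gene, unscaled, 1 column per library. The paper names TopHat2, hg38 and featureCounts without versions; the submitters' notes name mouse builds, but the gene identifiers are human. Why values are fractional is not given in the sources used here. Of 35106 identifiers, 34979 matched GENCODE release 44, which gave symbols, coordinates and lengths.

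Counts were rounded, filtered by filterByExpr, given TMM factors (trimmed mean of M values) and tested in edgeR 4.0.16 under R 4.3.3 with glmQLFit and glmQLFTest. Benjamini-Hochberg adjustment ran over 13548 genes, and standard errors were derived from the F statistic. CPM were computed from the rounded counts, with library totals taken over the tested genes, and TPM from the deposited counts.

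The 9 genes and the lists were chosen with earlier results of these data known. Beside the 9 genes, a list names up to 4 called genes with the smallest p, fixed genes are named (some named items are not reported here), and the 8 genes nearest in profile; cell type markers, DHX15 and the neighbours of the OAS cluster are given besides. The 16 alternatives included DESeq2 1.42.0 and limma-voom from limma 3.58.1, other scalings, filters, a replicate block, a spline offset (5 degrees of freedom) and leaving out each library.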

Additional observations from a re-analysis of the deposited data

How the results depend on the processing

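OAS1, OAS3, DDX58, IFIH1 and EIF2AK2 were lower at the threshold in all 16 alternatives, with log2 fold changes of -1.64 to -1.27, -1.26 to -0.99, -1.20 to -0.92, -0.93 to -0.70 and -0.79 to -0.52. OASL passed in 2 and MAVS in 1 of the 16. The number of lower sensor genes was 5 to 6 with a library left out. No direction of a tested sensor gene reversed. MAVS was at -0.05 and EIF2AK2 at -0.52 with the length and GC offset, with or without the replicate block.

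Over all genes, DESeq2 with the replicate block called 959 higher and 728 lower. Leaving out a library gave 861 to 2074 higher (861, 932 and 943 without control replicate 1, control replicate 2 and shikonin replicate 2) and 776 to 1901 lower (776, 866, 972 and 957 without control replicate 1, control replicate 2, shikonin replicate 1 and shikonin replicate 2). In the lists, 1 gene was higher with library totals as the only scaling, 2 with the edgeR replicate block, 3 with the DESeq2 replicate block, 8 with the length and GC offset, with or without the block, and 1 to 13 with a library left out, while 27 to 41 were lower with a library left out. Of single-gene and single-list values, 305 stayed close to the reported one and 58 moved. The cause was not tested. Libraries of the same number did not deviate together (correlations of 0.0027, 0.013 and 0.037 over genes). The block turned no sensor gene from called to not called or back. DHX58, which did not pass in DESeq2, was not tested there with the block. DHX58 and OAS2 are limited by depth.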

Other observations

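Next to the OAS1, OAS3 and OAS2 cluster, the nearest tested genes on either side, looked up after the sensor values were seen, did not pass the test. PTPN11, 395.9 kb before the cluster, had a log2 fold change of -0.13 (standard error 0.09), and DTX1, 45.0 kb after it, of 0.09 (standard error 0.49) at about 1 CPM. RASAL1 and DDX54, farther on, were at 0.16 and 0.20. RPL6, 487.0 kb before the cluster, was at 0.20 and did not pass. HECTD4, 523.4 kb before the cluster, was lower at -0.47.

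The GAAA repeat of the sensor promoters was also counted over all tested genes with a promoter in the table, as a description. Of 272 genes with the 2-base repeat (GAAA, any 2 bases, GAAA), 18.8% were lower, against 11.3% of 10152 genes without it. With the sensor genes and the 7 lists left out, the shares were 13.1% of 244 genes with it and 11.2% of 10066 without it, while 13.5% and 10.9% of them were higher. For GAAANGAAA, the form held by OAS1, OAS3 and DDX58, 10.9% of 258 genes with it were lower, against 11.5% of 10166 without it. With the same genes left out, these shares were 8.61% of 244 and 11.3% of 10066, while 15.2% and 10.8% of them were higher.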
